A study of Mus musculus with 6 samples.

Results

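The 8 genes described here were chosen as genes of the ionocyte-like microvillar cell of the olfactory epithelium. They are not all specific to that cell. Atp6v0d2 is also a gene of osteoclasts, and Ascl3 is also expressed in ducts of the salivary gland. Atp6v1g3, Atp6v0d2, Atp6v1b1 and Atp6v1c2 encode subunits of the proton pump, Foxi1 and Ascl3 encode transcription factors, Cftr a chloride channel and Coch a secreted protein. They are 8 of the 24661 genes in the deposited tables. Atp6v1g3 was selected on its measured fold change in these mice, one of the largest increases of all genes in RTP1,2DKO. The other 7 were chosen as markers of the same cell, to ask whether they follow it. RNA-Seq was done on the whole olfactory mucosa of 3 wild-type mice and 3 mice homozygous for the loss of both Rtp1 and Rtp2 (RTP1,2DKO), all C57BL/6 and at postnatal day 21. The RTP1,2DKO allele replaced the coding regions of both genes in ES cells of mixed 129 and B6 origin and was crossed onto C57BL/6. It is carried by every cell of the animal. Per the study's methods each genotype held 2 males and 1 female, and sex was matched between wild-type and RTP1,2DKO littermates.

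The vacuolar H+-ATPase is a rotary pump. Its cytoplasmic V1 part splits ATP, and its membrane V0 part carries protons across the membrane. Most subunits have a form found in nearly every cell, and some have a further form restricted to cells that secrete acid or base, such as the intercalated cells of the kidney and the narrow and clear cells of the epididymis. Ionocytes are rare epithelial cells of this kind that carry these restricted pump subunits together with Cftr. Foxi1, a forkhead transcription factor, is required for their formation in several organs. In the olfactory epithelium they are a class of microvillar cell, they are not neurons, and they are distinct from the Trpm5-positive microvillar cells, which resemble tuft cells.

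On mouse build GRCm38, Atp6v1g3 lies on the plus strand at chr1:138273738-138289462 and Atp6v0d2 on the minus strand at chr4:19876841-19922605. Atp6v1b1 is at chr6:83742990-83758855 (plus) and Atp6v1c2 at chr12:17284721-17329359 (minus). Foxi1 is at chr11:34204338-34208089 (minus) and Ascl3 at chr7:109727465-109731726 (minus). Cftr is at chr6:18170687-18322768 (plus) and Coch at chr12:51593341-51605771 (plus). All 8 are protein-coding. Between 98.7% and 100% of the words of 31 bases in their transcripts occur in no other annotated gene, so few of their reads are shared with a copy elsewhere. The last 50 bases of Atp6v1c2 overlap the end of Pdia6 on the opposite strand. Gm15592 on the opposite strand and Gm15595 on the same strand lie within the span of Cftr, sharing 18913 and 961 bases with it, and neither was analysed here.

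Promoter windows of 250 bases before the RefSeq start were available from RefSeq (GRCm38.p6) for 7 of the 8 genes, all but Atp6v0d2. For Atp6v1c2 this start, and so the window, lies inside the gene span given above. Forkhead proteins bind sequences built around TGTTTA, so these letters and their complement TAAACA were searched on both strands. They occurred once in the window of Atp6v1b1 and 2 times in that of Ascl3. The other 5 windows, Atp6v1g3 and Foxi1 among them, held neither. Of 32817 RefSeq promoter windows of 250 bases, 12.0% held a match. The windows of Atp6v1g3 (chr1:138273488-138273737, plus strand), Atp6v1b1 (chr6:83742767-83742989, plus strand) and Ascl3 (chr7:109731733-109731982, minus strand) are shown 5′ to 3′ because Atp6v1g3 is the gene that stands apart below and the other two carry matches, which are in capitals. For Atp6v1b1, 223 of the 250 bases are shown, those before the start of the gene given above.
Atp6v1g3: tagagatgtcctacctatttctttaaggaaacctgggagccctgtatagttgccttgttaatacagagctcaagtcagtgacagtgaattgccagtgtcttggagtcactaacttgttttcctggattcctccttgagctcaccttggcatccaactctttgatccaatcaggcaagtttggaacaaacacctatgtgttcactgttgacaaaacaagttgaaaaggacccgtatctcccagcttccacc
Atp6v1b1: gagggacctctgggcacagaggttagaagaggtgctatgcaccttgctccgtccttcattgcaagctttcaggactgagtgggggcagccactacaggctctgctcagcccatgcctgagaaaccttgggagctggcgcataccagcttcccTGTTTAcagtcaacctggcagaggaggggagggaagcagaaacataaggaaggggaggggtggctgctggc
Ascl3: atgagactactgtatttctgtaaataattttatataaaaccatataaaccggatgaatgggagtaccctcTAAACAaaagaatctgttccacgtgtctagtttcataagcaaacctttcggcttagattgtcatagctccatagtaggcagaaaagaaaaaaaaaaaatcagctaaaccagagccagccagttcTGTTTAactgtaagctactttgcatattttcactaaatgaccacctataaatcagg
A match of 6 letters describes the window and does not show that a protein binds there. Nor does the lack of this match show that no forkhead protein binds. The G+C content was 44.4% in the Atp6v1g3 window and 34.8% in that of Ascl3, both under the median of 52.4% over all windows. It was between 58.8% and 76.4% in the other 5, with Cftr the highest and Coch next at 74.8%.

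Total estimated counts were 31125410 to 41636996 per mouse. Rtp1 was 13543 to 25301 normalized counts in wild-type and 85.5 to 108.8 in RTP1,2DKO, and Rtp2 was 7157 to 9510 and 26.2 to 58.0, so the libraries followed their labels. Over the 22152 genes that had any count, edgeR's quasi-likelihood test with Benjamini-Hochberg adjustment at 0.05 called 102 genes higher in RTP1,2DKO, which is 0.460% of those tested, and 697 lower, which is 3.15%. The median log2 fold change of all tested genes was 0.016. Normalized counts are estimated counts divided by the median-of-ratios size factor of the mouse, and all fold changes are RTP1,2DKO over wild-type on the log2 scale.

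All 8 genes had counts in every mouse, but their levels differed widely. Levels of different genes were compared in TPM, a share of all transcripts in the library that divides by transcript length. Coch was the highest with a mean of 93.1 TPM over the 6 mice (range 68.4 to 125), and Atp6v1b1 was next with 46.2 TPM (34.3 to 57.4). Ascl3 at 26.2 TPM (19.7 to 34.1) and Atp6v1c2 at 22.4 TPM (17.8 to 29.5) overlapped and changed places in RTP1,2DKO mouse 3. Atp6v0d2 followed at 12.5 TPM (9.47 to 14.6), below every value of Atp6v1c2. Cftr at 5.44 TPM (4.07 to 6.95) and Foxi1 at 4.42 TPM (3.61 to 5.32) overlapped and changed places in wild-type mouse 3. Atp6v1g3 was the lowest in every mouse, with a mean of 0.509 TPM (0.135 to 0.992). The place of Ascl3 depends on its short transcript of 706 bases, of which 24.7% counted as effective length. The same percentage was 64.5% to 91.2% for the other 7. In normalized counts per kilobase of full length, Ascl3 had 222, below Atp6v1c2 with 493 and Atp6v0d2 with 333.

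Atp6v1g3, the restricted form of the G subunit in the stalk of V1, was higher in each RTP1,2DKO mouse than in any wild-type mouse. Its estimated counts were 5, 14 and 7 in wild-type mice 1, 2 and 3, and 33, 34 and 58 in RTP1,2DKO. After normalization they were 5.2, 13.4 and 7.7 against 34.8, 29.7 and 56.8. The lowest RTP1,2DKO mouse was above the highest wild-type mouse. The group means were 8.75 ± 4.19 and 40.4 ± 14.5 (SD, n = 3), a log2 fold change of 2.18 (SE 0.54) or 4.54-fold. The gene was chosen for this value, which is therefore a description with no test. It rests on few counts, and leaving out 1 mouse at a time gave log2 fold changes of 1.85 to 2.63.

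The other 7 genes did not share an increase of that size. None of the 7 passed edgeR's quasi-likelihood test at an adjusted p of 0.05 in either direction, where 3.61% of all tested genes did. The likelihood-ratio test of edgeR and limma-voom also called 0 of the 7, where they called 0.763% and 0.321% of all genes higher. DESeq2's Wald test and the fit with the mouse number as a block each called 1 of the 7, Coch, where 1.10% and 0.885% of all genes were called higher. At an unadjusted p under 0.05 there were 2 of 7, Coch and Atp6v0d2, both higher in RTP1,2DKO. Of all genes, 11.8% passed that threshold and 4.58% passed it with a higher value in RTP1,2DKO. The same 2 had every RTP1,2DKO mouse above every wild-type mouse, which held for 7.17% of all genes. None had every RTP1,2DKO mouse below, against 9.24%. The log2 fold change was positive in 5 of 7, with a median of 0.22 and a range of -0.13 to 0.41.

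**Figure D1:**
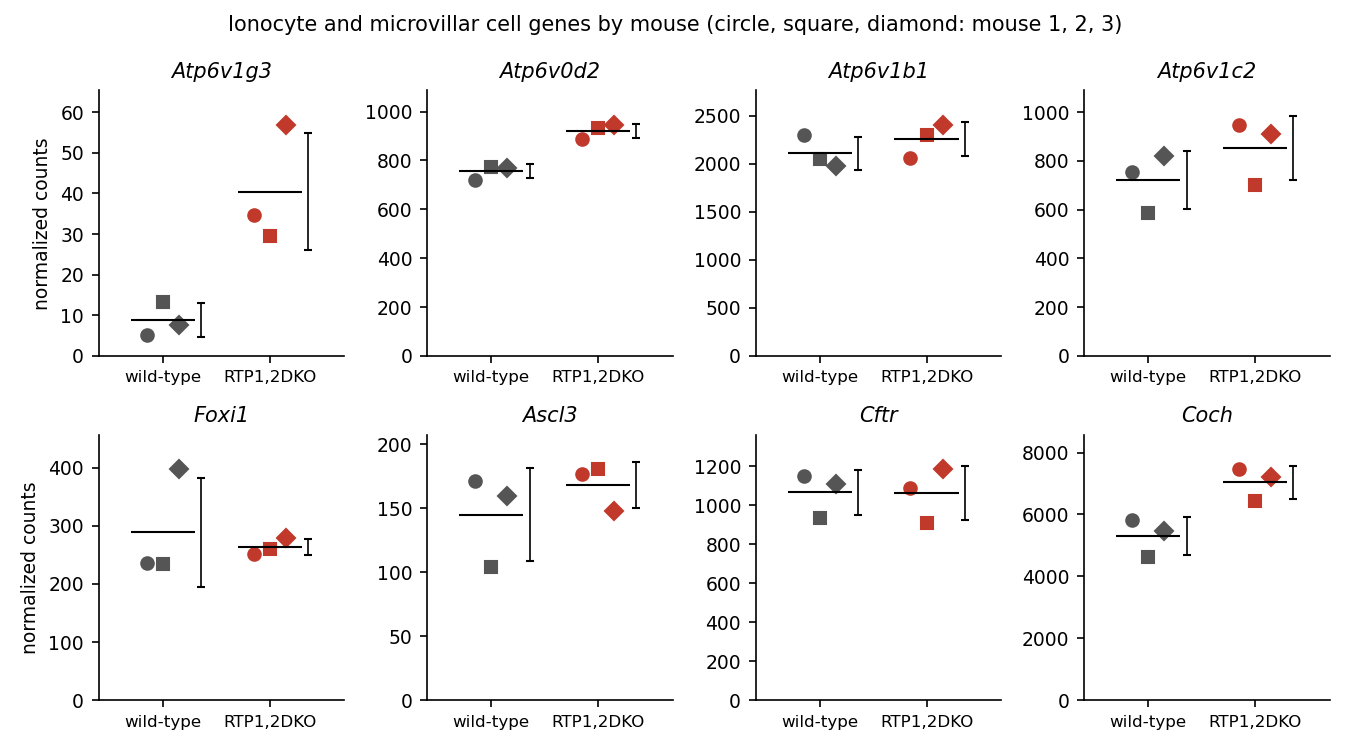
Normalized counts of the 8 genes (y axis, linear from 0, own scale per panel) in 3 wild-type (grey) and 3 RTP1,2DKO mice (red); horizontal lines are group means, bars at their right are 1 SD, and circle, square and diamond are mouse 1, 2 and 3. The groups do not overlap in Atp6v1g3, Atp6v0d2 and Coch and overlap in the other 5, and RTP1,2DKO mice reach 56.8 in Atp6v1g3 against 13.4 at most in wild-type.

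Of the other pump subunits, Atp6v0d2 encodes the restricted form of subunit d, a V0 subunit that connects to the central stalk of V1. It had 722, 774 and 771 normalized counts in wild-type and 887, 931 and 945 in RTP1,2DKO. The groups did not overlap, with means of 755.5 ± 29.0 and 921.1 ± 30.1. The log2 fold change was 0.29 (SE 0.12, 95% interval 0.02 to 0.55), and its adjusted p in edgeR's quasi-likelihood test was 0.36. Between mice of the same number the difference was 0.30, 0.27 and 0.29, the narrowest range of the 8 genes. Atp6v0d2 is also a gene of osteoclasts, and the dissected mucosa contains bone. The 12 osteoclast genes tested had 0 calls in either direction, against 3.61% of all tested genes, and a median log2 fold change of 0.03. Their summed level was 25299 to 30745 normalized counts in wild-type and 29458 to 32252 in RTP1,2DKO, and their part in the Atp6v0d2 value was not tested. The cathepsin gene Ctsk, the highest of them, differed by 0.26 (adjusted p = 0.496) and the phosphatase gene Acp5 by 0.13. Values were positive in 8 of the 12, while Nfatc1 had -0.27 and Oscar -0.32.

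Atp6v1b1 encodes the restricted B subunit, one of the V1 subunits at which ATP is bound. Its normalized counts were 2296, 2047 and 1977 in wild-type and 2064, 2303 and 2402 in RTP1,2DKO. The groups overlapped, with a log2 fold change of 0.10 (SE 0.12, 95% interval -0.16 to 0.36, adjusted p = 0.84). Atp6v1c2, the restricted C subunit that links V1 to V0, had 755, 588 and 819 normalized counts in wild-type and 946, 702 and 909 in RTP1,2DKO. The groups overlapped, although RTP1,2DKO was higher within each pair of the same number, by 0.33, 0.26 and 0.15. Its log2 fold change was 0.24 (SE 0.16, 95% interval -0.11 to 0.60, adjusted p = 0.668).

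The transcription factor genes did not differ beyond the spread between mice. Foxi1 had 236, 234 and 397 normalized counts in wild-type and 252, 260 and 279 in RTP1,2DKO. Wild-type mouse 3 stood above the other 5 mice, which lay close together. The log2 fold change was -0.13 (SE 0.21, 95% interval -0.59 to 0.34, adjusted p = 0.897), and without wild-type mouse 3 it was 0.17. Ascl3, a basic helix-loop-helix factor expressed in microvillar cells and in ducts of the salivary gland, had 172, 104 and 160 against 177, 181 and 148. Wild-type mouse 2 was the lowest and the groups overlapped, with a log2 fold change of 0.22 (SE 0.23, 95% interval -0.29 to 0.72, adjusted p = 0.827).

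Cftr, the chloride channel gene, had means of 1067 ± 114 and 1062 ± 138.7 normalized counts. Its normalized counts were 1151, 937 and 1111 in wild-type and 1089, 911 and 1185 in RTP1,2DKO, with a fold change of -0.01 on the log2 scale (SE 0.14, adjusted p = 0.995). The 95% interval, -0.31 to 0.29, leaves room for a change of that size in either direction. Coch encodes cochlin, a secreted protein of the extracellular matrix known from the inner ear. It had 5807, 4612 and 5474 normalized counts in wild-type and 7457, 6439 and 7224 in RTP1,2DKO. The groups did not overlap, with means of 5298 ± 616.8 and 7040 ± 533.3. The log2 fold change was 0.41 (SE 0.13, 95% interval 0.14 to 0.68), or 1.33-fold, the largest of the 7. Its adjusted p in edgeR's quasi-likelihood test was 0.126, above the threshold. With the mouse number as a block it was 0.041, and in DESeq2's Wald test it was 0.036.

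For Cftr, Coch and Atp6v1c2, mouse 2 was the lowest of its group in both wild-type and RTP1,2DKO, a pattern noticed after the values were seen. Because whole mucosa was sequenced, a change in the number of cells of a type and a change in RNA per cell cannot be told apart for any of these genes.

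The direction of small changes depended on the scale. On the deposited TPM the median gene was lower in RTP1,2DKO by a log2 ratio of -0.23 (15429 genes with a mean of at least 50 normalized counts), and Atp6v1b1 then had a negative log2 ratio of group means, -0.16. Relative to that median the TPM ratios were 2.12 for Atp6v1g3, 0.41 for Coch, 0.27 for both Atp6v0d2 and Atp6v1c2, 0.24 for Ascl3, 0.06 for Atp6v1b1, -0.01 for Cftr and -0.08 for Foxi1. The order of the genes was therefore nearly that of the fold changes in normalized counts.

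To set Atp6v1g3 against other genes of the list within each mouse, its counts were divided by theirs. Per 1000 counts of Atp6v1b1 there were 2.25, 6.53 and 3.9 counts of Atp6v1g3 in wild-type and 16.8, 12.9 and 23.7 in RTP1,2DKO. Per 1000 counts of Foxi1 there were 21.9, 57.1 and 19.4 against 138, 114 and 204. In neither ratio did the groups overlap. These ratios contain the value for which Atp6v1g3 was chosen and were not tested. They also include any Atp6v1b1 and Foxi1 counts from other cells of the mucosa.

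**Figure D2:**
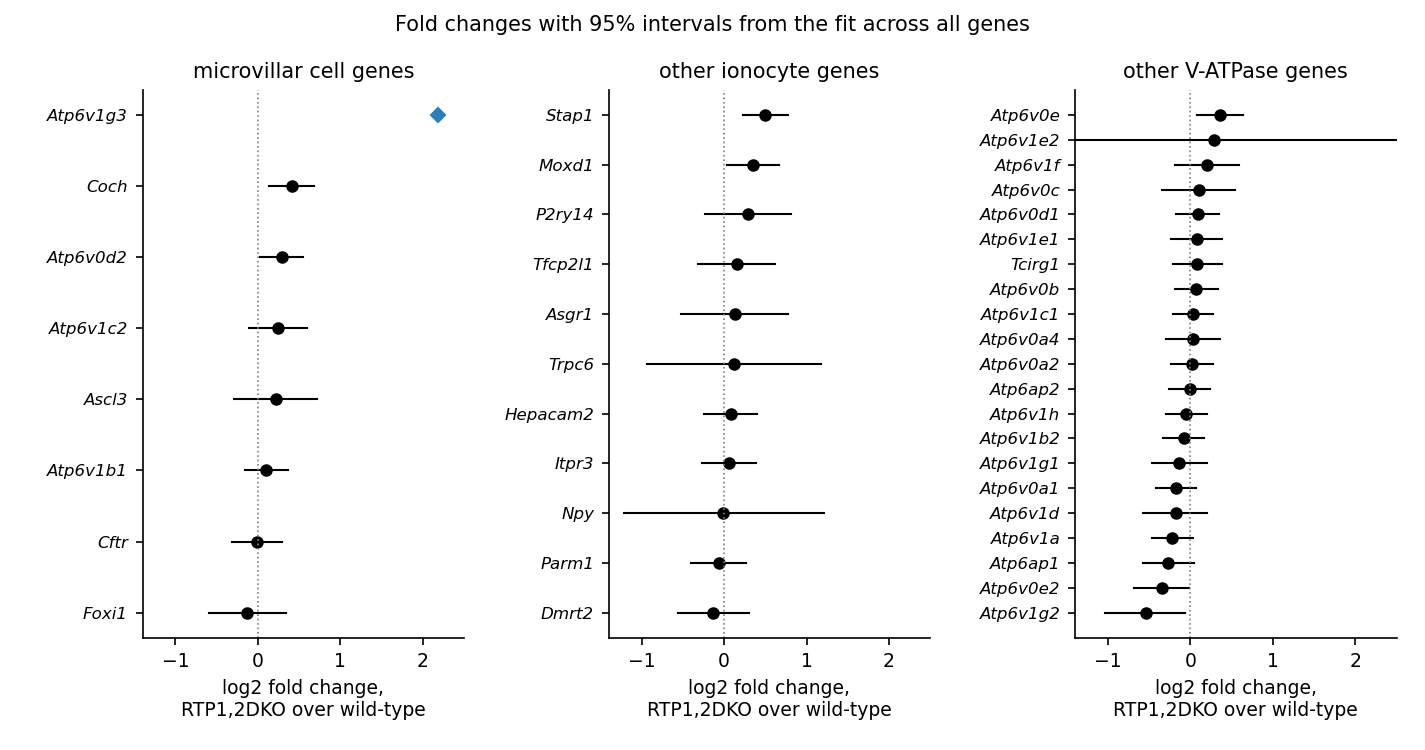
Log2 fold change of RTP1,2DKO over wild-type (x axis) for the 8 microvillar cell genes (left), 11 other ionocyte genes (middle) and 21 other V-ATPase genes (right), with 95% intervals from the fit across all genes. Atp6v1g3 (blue diamond, no interval because it was chosen for its increase) lies at 2.18 while the other 7 genes on the left lie between -0.13 and 0.41; the interval of Atp6v1e2, which has under 3 normalized counts in every mouse, runs off the axis.

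The restricted subunits can also be read as a share of all forms of their subunit. This share uses TPM within 1 mouse and does not depend on the scaling between mice. Atp6v1b1 made up 48.2%, 43.4% and 41.1% of subunit B in wild-type and 44.8%, 46.4% and 50.7% in RTP1,2DKO, with Atp6v1b2 as the remainder. The means of 44.2% ± 3.66 and 47.3% ± 3.02 differed by 3.08 percentage points (exact two-sided permutation test, p = 0.4). Atp6v1c2 made up 37.6%, 30.5% and 41.3% of subunit C in wild-type and 42.3%, 34.9% and 42.2% in RTP1,2DKO (3.32 points, exact permutation p = 0.5). The restricted forms of B and C thus made up 30.5% to 50.7% of their subunit in every mouse. Which cells of the mucosa this RNA came from was not tested.

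Atp6v0d2 made up 14.1%, 13.9% and 12.7% of subunit d in wild-type and 14.3%, 15.0% and 16.4% in RTP1,2DKO. The groups did not overlap, and the difference was 1.67 points. The exact permutation p was 0.1, the smallest that 3 mice against 3 allow, and 0.4 after adjustment over the 4 shares tested. Atp6v0a4, the restricted form of the membrane subunit a, made up 33.2%, 32.0% and 23.2% in wild-type and 31.1%, 31.1% and 30.6% in RTP1,2DKO (1.45 points, exact permutation p = 1). After adjustment the values for Atp6v1b1 and Atp6v1c2 were both 0.67. The G subunit differed from these. Atp6v1g3 made up 0.0376%, 0.0697% and 0.0602% of subunit G in wild-type and 0.232%, 0.212% and 0.451% in RTP1,2DKO, given without a test. Even after its increase, Atp6v1g3 remained a minor form in the whole mucosa. Its means were 0.215 TPM in wild-type and 0.802 TPM in RTP1,2DKO, beside 368 and 280 TPM for Atp6v1g1. Its share within the cells that carry it was not measured.

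**Figure D3:**
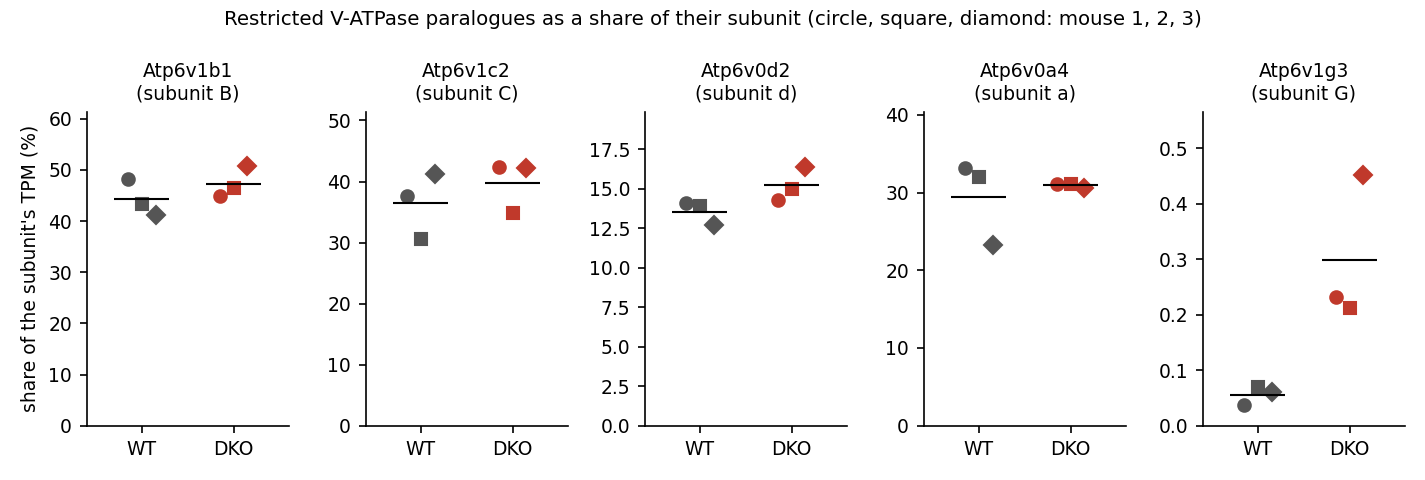
Share of each restricted paralogue in the summed TPM of its subunit (y axis, percent, linear from 0, own scale per panel) in wild-type (WT, grey) and RTP1,2DKO mice (DKO, red), with lines at the group means and circle, square and diamond for mouse 1, 2 and 3. Atp6v1b1, Atp6v1c2 and Atp6v0a4 overlap between groups at 23.2% to 50.7%, Atp6v0d2 does not at 12.7% to 16.4%, and Atp6v1g3 stays at or under 0.451%.

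The rest of the pump did not follow Atp6v1g3. Of 21 further V-ATPase genes, 0 were called higher and 0 lower by edgeR's quasi-likelihood test. Of all tested genes, 0.460% were called higher and 3.15% lower. The median log2 fold change of the 21 was 0.023. All RTP1,2DKO mice were above all wild-type mice in 1 of the 21, Atp6v0e (0.36, adjusted p = 0.223), where 7.17% of all genes had this pattern. They were below in 4, where 9.24% of all genes had the reverse pattern. These were Atp6v1g2, the neuronal G subunit (-0.54, adjusted p = 0.34), Atp6v0e2 (-0.35, adjusted p = 0.375), the catalytic subunit Atp6v1a (-0.22) and Atp6v0a1 (-0.17). Atp6v1g1, the ubiquitous G subunit, had a log2 fold change of -0.14 (adjusted p = 0.84). Atp6v0a4, which is restricted to the same cells of the kidney as Atp6v1b1, had 3093, 2842 and 1986 normalized counts in wild-type and 2635, 2697 and 2742 in RTP1,2DKO, and differed by 0.03 on the log2 scale (adjusted p = 0.978).

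Among 11 other genes reported in ionocytes or in these microvillar cells, 1 was called higher and 0 lower. The shares of all tested genes were 0.460% higher and 3.15% lower. The 1 gene was Stap1, a signaling adaptor, with 803, 744 and 698 normalized counts in wild-type and 1002, 1130 and 1036 in RTP1,2DKO. The groups did not overlap, with means of 748.3 ± 52.5 and 1056 ± 66.4, and the log2 fold change was 0.50 (SE 0.12, adjusted p = 0.047 in edgeR's quasi-likelihood test). The call was close to the threshold. It was lost under total count scaling (adjusted p = 0.2), with limma-voom (0.059), and when any mouse but wild-type mouse 1 was left out (0.088 to 0.22). The other 10 genes were not called. They include Moxd1 with a log2 fold change of 0.35 (adjusted p = 0.355), Hepacam2 with 0.08, Asgr1 with 0.13 and Tfcp2l1, the most abundant, with 0.15. Values were positive in 8 of the 11, and Dmrt2 (-0.13), Parm1 (-0.06) and Npy (-0.01) were negative. The median of the 11 was 0.12.

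Of 15 genes for acid-base and chloride transport, Rhcg had no count in any mouse, which allows up to 3 counts in each library. Of the 14 tested, 0 were called in either direction by edgeR's quasi-likelihood test, where 3.61% of all tested genes were. The median of the 14 was 0.09. The most abundant was Slc12a2, a sodium-potassium-chloride cotransporter (-0.24, adjusted p = 0.511), and the pendrin gene Slc26a4 had 0.33 (adjusted p = 0.757). The anion exchanger gene Slc4a1 had 1068, 2155 and 2359 normalized counts in wild-type and 5116, 3441 and 2499 in RTP1,2DKO, and differed by 0.99 on the log2 scale (adjusted p = 0.089). Car2, a carbonic anhydrase, had 0.55 (adjusted p = 0.211). Slc4a1 and Car2 are abundant in red cells, and all 6 red cell genes listed had positive values. Of these, the globin gene Hbb-bt was called higher (0.88, adjusted p = 0.048) and was no longer called when any mouse but RTP1,2DKO mouse 3 was left out (0.052 to 0.2). Their summed level was 58221 to 95275 normalized counts in wild-type and 92960 to 171457 in RTP1,2DKO. Their part in the Slc4a1 and Car2 values was not tested.

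The other cell types of the mucosa give the setting for these values. By edgeR's quasi-likelihood test 3.61% of all tested genes were called in either direction, so 0 calls in a short list is near that share. The genes of the other microvillar cell, 15 markers of Trpm5-positive tuft-like cells, had 0 calls and a median of 0.063, with summed levels of 927 to 1113 normalized counts in wild-type and 1011 to 1068 in RTP1,2DKO. Trpm5 itself had -0.15 and Pou2f3, the transcription factor of these cells, had -0.15. Values were positive in 8 of the 15, Sh2d7 (0.59) and Plcb2 (0.44) among them. Bmx, the most abundant, had 0.06. Sustentacular cell genes had 0 calls of 10 and a median of -0.022, with -0.01 for Ugt2a1. Bowman's gland genes had 0 of 8 and 0.0057, with 0.13 for Bpifb9b, and duct genes 0 of 6 and 0.083, with 0.07 for Elf5. No call was made among 9 macrophage genes (median 0.05, Csf1r 0.05) or 8 osteoblast genes (0.12, Col1a1 0.13). The same held for 6 horizontal basal cell genes (0.13, Itga6 0.14), 6 genes of motile cilia (-0.20, Dnah5 -0.18) and 5 of ensheathing glia (0.059). In 3 of the 6 motile cilia genes every RTP1,2DKO mouse was below every wild-type mouse, against 9.24% of all genes. Ccdc39 was among them (-0.42, adjusted p = 0.087 in edgeR's quasi-likelihood test), and 1 of the 6 had a positive value.

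In the neuronal lineage, all 9 mature olfactory sensory neuron (OSN) genes were called lower by edgeR's quasi-likelihood test, with a median of -1.09. Examples are Omp (-0.90), Gnal (-0.94), Cnga2 (-1.05) and Adcy3 (-1.41). Over all tested genes, 3.15% were called lower and 0.460% higher. The summed level of the 9 was 165520 to 190090 normalized counts in wild-type and 84128 to 90734 in RTP1,2DKO. Among 6 immature OSN genes, with a median of 0.33, 2 were called higher, Gng8 (0.91, adjusted p = 0.01) and Gap43 (0.58, adjusted p = 0.042). Dpysl3, the highest, had 0.40 (adjusted p = 0.126). The Gap43 call was lost when any mouse but wild-type mouse 1 was left out (0.055 to 0.17). Among 8 globose basal cell genes 1 was called higher, Hes6 (0.75, adjusted p = 0.0089), while Top2a, the highest, had 0.52 (adjusted p = 0.099). The median of the 8 was 0.50. Every RTP1,2DKO mouse was above every wild-type mouse in 7 of these 8 genes and in 4 of the 6 immature OSN genes, against 7.17% of all genes. A smaller share of mature OSN RNA moves with genotype in every mouse, and its part in the values of the microvillar cell genes was not tested.

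**Figure D4:**
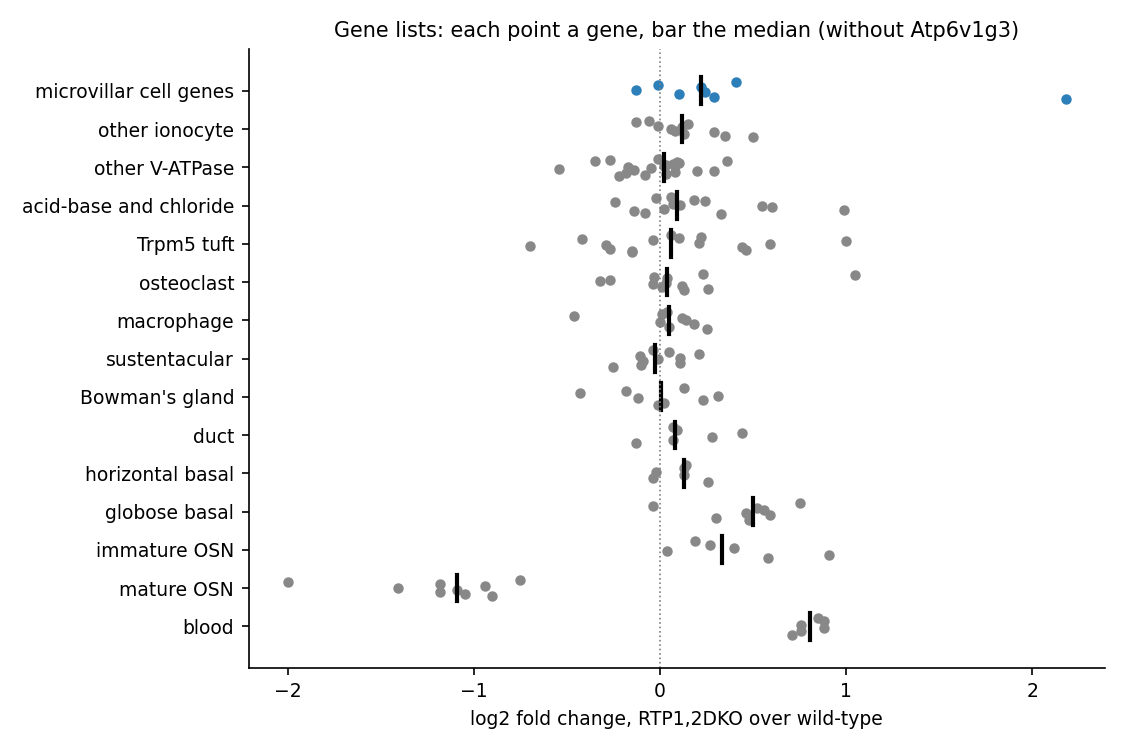
Log2 fold change of RTP1,2DKO over wild-type (x axis) for each gene (points) of 15 gene lists (y axis), with a black bar at the median of each list. The bar of the microvillar cell genes (blue) leaves out Atp6v1g3 and lies at 0.22, against -1.09 for mature OSN genes and 0.80 for red cell genes.

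Among 15430 genes with a mean of at least 50 normalized counts, the 5 whose centred log2 profile over the 6 mice was closest to that of Atp6v1g3 were the olfactory receptor genes Olfr1239, Olfr799, Olfr194 and Olfr351 and the vomeronasal receptor gene Vmn2r39. Their root mean square differences from Atp6v1g3 were 0.505 to 0.581 log2 units. Olfr1239, the closest, had 44.5, 76.3 and 46.3 normalized counts in wild-type and 112, 119 and 152 in RTP1,2DKO. In both genes wild-type mouse 2 was the highest of its group and RTP1,2DKO mouse 3 the highest of all. The other microvillar cell genes came between places 1319 and 10908 of these 15430 genes. Coch came at place 1319 (0.997), Atp6v0d2 at 1512, Atp6v1c2 at 3340, Atp6v1b1 at 5071, Ascl3 at 7641, Cftr at 8158 and Foxi1 at 10908. The likeness is a description over 6 mice, and it includes the difference between genotypes for which Atp6v1g3 was chosen.

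Of the 8 genes, Atp6v1c2 and Coch have 2 transcripts each in the deposited tables. The second transcript of Coch held 0% to 1.69% of its counts. For Atp6v1c2 the split was uneven between mice of the same genotype. The longer transcript, of 1597 bases against 1567, held 69.0%, 10% and 28.4% of the counts in wild-type mice 1, 2 and 3 and 77.9%, 11.3% and 27.2% in RTP1,2DKO. The split therefore went with the mouse number and not with genotype. Mice of the same number differed by 8.89, 1.3 and 1.18 percentage points, and mice of different numbers by at least 15.9. The genotype means of 35.8% ± 30.2 and 38.8% ± 34.8 did not differ beyond the spread (exact two-sided permutation test, p = 0.8). Of 1710 genes with 2 such transcripts at a mean of at least 50 counts each, 8 (0.468%), Atp6v1c2 included, were closer within every number than between any numbers. This pattern was chosen after its values were seen, and the program that made the counts assigns reads shared by both transcripts by estimation. The sum over both transcripts, used above, does not depend on this assignment.

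**Figure D5:**
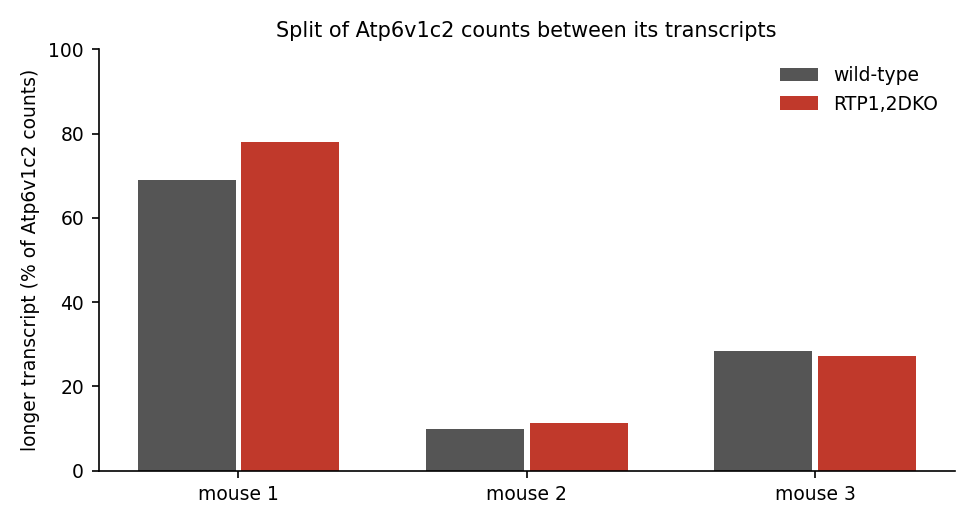
Share of the Atp6v1c2 estimated counts assigned to its longer transcript (y axis, percent, 0 to 100) for mouse 1, 2 and 3 (x axis), wild-type in grey and RTP1,2DKO in red; each bar is 1 mouse. Bars of the same number are within 8.89 percentage points of each other, while mouse 1 lies at 69.0% and 77.9% and mouse 2 at 10% and 11.3%.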

How the data were processed

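Stranded RNA-Seq libraries were made from olfactory mucosa, 3 per genotype. The authors ran kallisto on mouse transcripts with extended olfactory receptor annotations (build mm10 in the submitters' processing notes) and deposited, per mouse, estimated counts and TPM for each transcript. The kallisto version and its strand setting are not given in the sources used here. A gene's estimated counts are the rounded sum over its transcripts. Groups and mouse numbers came from the labels.

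Genotypes were compared in R 4.3.3 by the quasi-likelihood test of edgeR 4.0.16. Size factors by median of ratios (0.907 to 1.147) came from DESeq2 1.42.0. Genes with a count of 1 or more in any of the mice entered, no covariate was used, and p-values were adjusted by Benjamini-Hochberg with a threshold of 0.05. The script was tested on simulated data. Shares were computed from the deposited TPM, since TPM can be compared between genes, in Python 3.11.15 with pandas 2.3.3 and scipy 1.17.1, and tested by exact permutation over mice. Counting error is large for genes with few counts, and the depth of 31125410 to 41636996 counts per mouse sets that limit. Positions came from GENCODE M21 (GRCm38) and promoters from RefSeq.

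Mice of the same number deviated from their group means together, with correlations of 0.139, 0.179 and 0.103. Mice of different numbers had -0.219 to 0.0934, the latter for wild-type mouse 1 and RTP1,2DKO mouse 3. Both were taken over 18133 genes with a mean of at least 10 normalized counts. The numbers were therefore taken to pair the samples, although the margin was small. The alternatives were TMM (edgeR), scaling to the total count, a filter on low counts, DESeq2's Wald test, edgeR's likelihood-ratio test, limma-voom 3.58.1, blocking on the mouse number, fits without 1 mouse at a time and, for the shares, the transcript with most counts. The comparison with the deposited TPM ratio was added after seeing the data. Named genes were the 8 genes, genes of the pump, ionocyte and transport lists past the threshold, in each other list those past it (up to 4) and the most abundant, Rtp1, Rtp2 and the 5 profiles closest to Atp6v1g3 (root mean square difference of log2(normalized count + 1), each profile centred on its mean). Further genes of these lists were named after their values were seen, and 1 gene that the rule names is not reported here. The 8 genes and the lists were chosen with earlier results of these data known.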

Additional observations from a re-analysis of the deposited data

How the results depend on the processing

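None of the alternatives called any of the 7 genes other than Atp6v1g3, except that DESeq2's Wald test and the mouse number as a block each called 1 higher, Coch (log2 fold change 0.41 in both). The block changed no other call among the 8 genes. With 1 mouse left out, 0 of the 7 were called in each of the 6 fits. The lone direction changes among them were in genes near 0, Foxi1 (-0.26 to 0.17) and Cftr (-0.10 to 0.09), and in Atp6v1b1 on the deposited TPM (-0.16), where the median gene was also lower. The same fits gave -0.25 to 0.07 for Atp6v1g1, -0.14 to 0.16 for Atp6v0a4 (-0.02 under total count scaling), -0.14 to 0.24 for Bmx and -0.10 to 0.19 for Ugt2a1 (0.01 with limma-voom and with the block). The Atp6v0a4 share difference was -0.236 points with the most abundant transcript of each gene only and -1.68 to 3.31 with 1 mouse left out.

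The count of all genes called higher, 102, was 42 under total count scaling, 216 with DESeq2, 169 with the likelihood-ratio test and 196 with the block, and 52 to 132 with 1 mouse left out. The count called lower was 533 to 686 with 1 mouse left out. In the lists, the other ionocyte genes had 0 calls higher under total count scaling and limma-voom (0 to 1 with 1 mouse left out), and the transport genes had 1, Slc4a1, with the likelihood-ratio test (0 to 1). The immature OSN genes had 1 call under total count scaling, the filter and limma-voom (1 to 2). The globose basal cell genes had 2 with DESeq2 and with the block. The red cell genes had 0 under total count scaling, the filter, limma-voom and the block, and 2 with DESeq2 (0 to 5). Lower calls were 1 in the Bowman's gland genes with DESeq2, 1 in the motile cilia genes with DESeq2 and with the block, and 0 to 1 in the ensheathing glia genes. The cause of these changes was not tested. With 3 mice a group, the 95% intervals of the 7 genes reach up to 0.72 on the log2 scale.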
